A study of Mus musculus with 8 samples.

Results

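Oxidative phosphorylation genes were taken as all genes on the array whose symbol began with Nduf, Uqc, Atp5, Cox4, Cox5, Cox6, Cox7 or Cox8, together with Sdha, Sdhb, Sdhc, Sdhd, Cyc1 and Cycs. This gave 95 of the 18193 genes tested, read from 190 probe sets that each carry 1 gene symbol. Each gene was represented by the probe set with the highest mean over all 8 arrays, and no gene was dropped for a low level. Of the 95 genes, 35 belonged to complex I, 4 to complex II, 9 to complex III, 1 to cytochrome c, 18 to complex IV, 17 to complex V and 11 to a class of assembly and accessory factors (the Ndufaf and Uqcc genes). Ndufa4 was counted in complex IV, where its protein is now placed, and its paralogue Ndufa4l2 stayed in complex I by its symbol. Cox7b is not analysed here.

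The samples were mouse embryonic stem cells (ESCs) grown without feeders or serum in 2i medium, which holds the MEK inhibitor PD0325901 (1 μM), the GSK3 inhibitor CHIR99021 (3 μM) and LIF. The Resc group (3 arrays) received 64 μM of the small-molecule MYC inhibitor of the study for 60 h and was then kept without it for 48 h. The MYCi group (2 arrays) received the same dose for 60 h. The DMSO group (3 arrays) received the solvent alone for 60 h, so that the Resc cells had been in culture for longer than both other groups. The inhibitor keeps MYC from binding MAX, without which MYC does not bind DNA. The labels give no genotype, name no cell line and do not say whether arrays of a group came from separate cultures, so that p-values here reflect array-to-array spread that could be purely technical.

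Oxidative phosphorylation is the work of a set of protein complexes of the inner mitochondrial membrane. Complexes I and II pass electrons from NADH and succinate to coenzyme Q, complex III passes them to the small carrier cytochrome c, and complex IV passes them to oxygen. Complexes I, III and IV pump protons as they do so, and complex V, the ATP synthase, makes ATP from the backflow of protons. Most subunits are encoded in the nucleus and a few in mitochondrial DNA. Naive mouse ESCs use respiration as well as glycolysis.

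Promoter stretches are shown for genes with the largest falls in complexes II to V, and for Cycs, which did not pass the test in the probe set used. RefSeq promoter windows of build GRCm38.p6, each of 300 bases (250 before the annotated start and 50 from it), were matched for 78 of the 95 genes, which have 83 windows. Each line below gives the 150 bases before the start, 5′ to 3′ on the strand of the gene, and capitals mark a match to 1 of the motifs searched.
Uqcrh (complex III), chr4:116075071-116075220, minus strand: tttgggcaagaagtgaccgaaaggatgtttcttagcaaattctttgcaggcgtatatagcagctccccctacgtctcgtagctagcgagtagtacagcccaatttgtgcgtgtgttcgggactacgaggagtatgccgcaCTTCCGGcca
Uqcr11 (complex III), chr10:80406822-80406971, minus strand: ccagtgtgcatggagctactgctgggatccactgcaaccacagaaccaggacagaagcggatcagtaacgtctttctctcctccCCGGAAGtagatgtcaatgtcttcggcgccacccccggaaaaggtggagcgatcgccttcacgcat
Atp5k (complex V), chr5:108434400-108434549, minus strand: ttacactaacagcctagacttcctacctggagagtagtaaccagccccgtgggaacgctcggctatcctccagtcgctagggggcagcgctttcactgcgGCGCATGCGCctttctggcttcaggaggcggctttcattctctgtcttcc
Sdhd (complex II), chr9:50603850-50603999, minus strand: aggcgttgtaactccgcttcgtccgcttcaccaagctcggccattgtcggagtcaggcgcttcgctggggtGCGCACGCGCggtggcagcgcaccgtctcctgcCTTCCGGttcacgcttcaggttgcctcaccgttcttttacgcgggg
Cox7a1 (complex IV), chr7:30184021-30184170, plus strand: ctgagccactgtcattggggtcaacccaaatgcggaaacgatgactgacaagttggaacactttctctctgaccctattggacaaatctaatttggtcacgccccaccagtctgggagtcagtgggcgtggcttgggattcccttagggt
Cycs (cytochrome c), chr6:50566570-50566719, minus strand: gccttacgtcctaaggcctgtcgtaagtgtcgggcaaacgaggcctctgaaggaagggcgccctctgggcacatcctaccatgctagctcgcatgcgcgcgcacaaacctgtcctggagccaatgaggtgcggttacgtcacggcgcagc

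The motifs below were searched in these windows on both strands: CACGTG (the E-box that MYC and MAX bind), GCGC and TGCGC with any 1 base between them (NRF1), CCGGAAG (the ETS core that GABP binds), AANATGGCG (YY1) and TCAAGGTCA (estrogen-related receptors). The E-box was present in 9.6% of the 83 windows of these genes, against 8.7% of the 18109 windows of all genes tested. The NRF1 motif was present in 22.9% against 7.4%, the ETS core in 22.9% against 13.0%, the YY1 motif in 12% against 3.5%, and the receptor motif in 2.4% against 0.3%. Median GC content was 59.0% in these windows, against 58.3% in all. In the stretches above, Uqcrh has the ETS core at 10 to 4 bases before the start, Uqcr11 has it at 66 to 60, and Sdhd has it at 46 to 40 together with the NRF1 motif at 79 to 70. Atp5k has the NRF1 motif at 50 to 41 bases before the start. No searched motif occurs in the windows of Cox7a1 and Cycs. These matches describe letters in a window and are not measurements of binding.

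The array values are log2 expression values, in which a difference of 1 is a factor of 2, and all changes below are differences of group means on that scale ± standard error from limma over all 8 arrays. The authors had equalised the arrays, so a shift of total RNA per cell that most genes share cannot be seen in them. Probe sets for bacterial Trpn controls lay between 2.15 and 2.95 and mark the level at which nothing is bound specifically. Pou5f1, Sox2 and Nanog, defining genes of pluripotent cells, lay between 11.24 and 12.41 on all arrays and were not called in MYCi against DMSO (-0.04, 0.12 and -0.10). Of the 7 pluripotency markers the other 4 were called higher and 0 lower, with list averages of 11.22 to 11.24 in Resc, 11.43 to 11.45 in MYCi and 11.18 to 11.22 in DMSO arrays. The 8 fibroblast markers averaged 3.54 to 3.57 in Resc arrays, 3.39 to 3.44 in MYCi arrays and 3.50 to 3.52 in DMSO arrays, with 1 called lower in MYCi than in DMSO. Of 6 neural markers 4 were called lower in MYCi than in DMSO and 3 lower in Resc than in DMSO, with list averages of 4.88 to 5.05 in Resc, 4.61 in both MYCi and 5.23 to 5.31 in DMSO arrays. Of 7 endoderm markers 2 were called lower in MYCi than in DMSO, with list averages of 3.71 to 3.72 in Resc, 3.57 to 3.63 in MYCi and 3.71 to 3.78 in DMSO arrays. Of 8 trophectoderm markers 5 were called higher in MYCi than in DMSO, with list averages of 5.44 to 5.57 in Resc, 7.07 to 7.18 in MYCi and 5.45 to 5.57 in DMSO arrays. These 5 were Krt18, Krt8, Eomes, Gata3 and Krt7, named after their values were seen, while Cdx2, Elf5 and Tfap2c were not called. In Resc against DMSO, 1 of the 8 trophectoderm markers was called higher and 2 lower, with changes from -1.21 to 1.59. Of all genes tested, 22.3% were called lower and 19.2% higher in MYCi than in DMSO. In Resc against DMSO these shares were 4.01% and 4.66%. The shares called lower in MYCi were 12.5% of fibroblast, 28.6% of endoderm and 66.7% of neural markers. The endoderm share was near that of all genes. Those called higher were 57.1% of pluripotency and 62.5% of trophectoderm markers. The difference between 3′ and 5′ Gapdh control probe sets, a sign of RNA quality, was -0.132, -0.117 and -0.133 in Resc, -0.148 and -0.216 in MYCi, and -0.124, -0.13 and -0.108 in DMSO arrays. The same difference for beta-actin was 0.248, 0.276 and 0.278 in Resc, 0.254 and 0.288 in MYCi, and 0.251, 0.269 and 0.26 in DMSO arrays. MYCi replicate 2 was thus lowest for Gapdh and highest for beta-actin. The part of these values in the results was not tested. In such bulk samples, fewer cells of a type and less RNA per cell cannot be told apart. Myc itself was not called in MYCi against DMSO (-0.17 ± 0.12), and its transcript is not what the inhibitor acts on.

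With the inhibitor, transcripts of oxidative phosphorylation genes were lower in most cases and in every complex. Against DMSO, 69 of the 95 genes were called lower at an adjusted p under 0.05 over all genes, which is 72.6%, while 22.3% of all genes tested were called lower. Only Cox6a2 and Cox7c were called higher, against 19.2% of all genes, and 24 were not called. The median change was -0.38 over the 95 genes and -0.06 over all genes tested. Most falls were modest: 19 genes were at least 1.5-fold lower, and the changes ran from -3.12 for Cox7a1 to 1.32 for Cox6a2. Most of these genes lie at high levels, and 61 of the 81 with a mean of 8 or more were called lower, against 36.9% of the 4352 genes of that level. Without MYCi replicate 2, the median change over the 95 genes was -0.34.

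**Figure D1:**
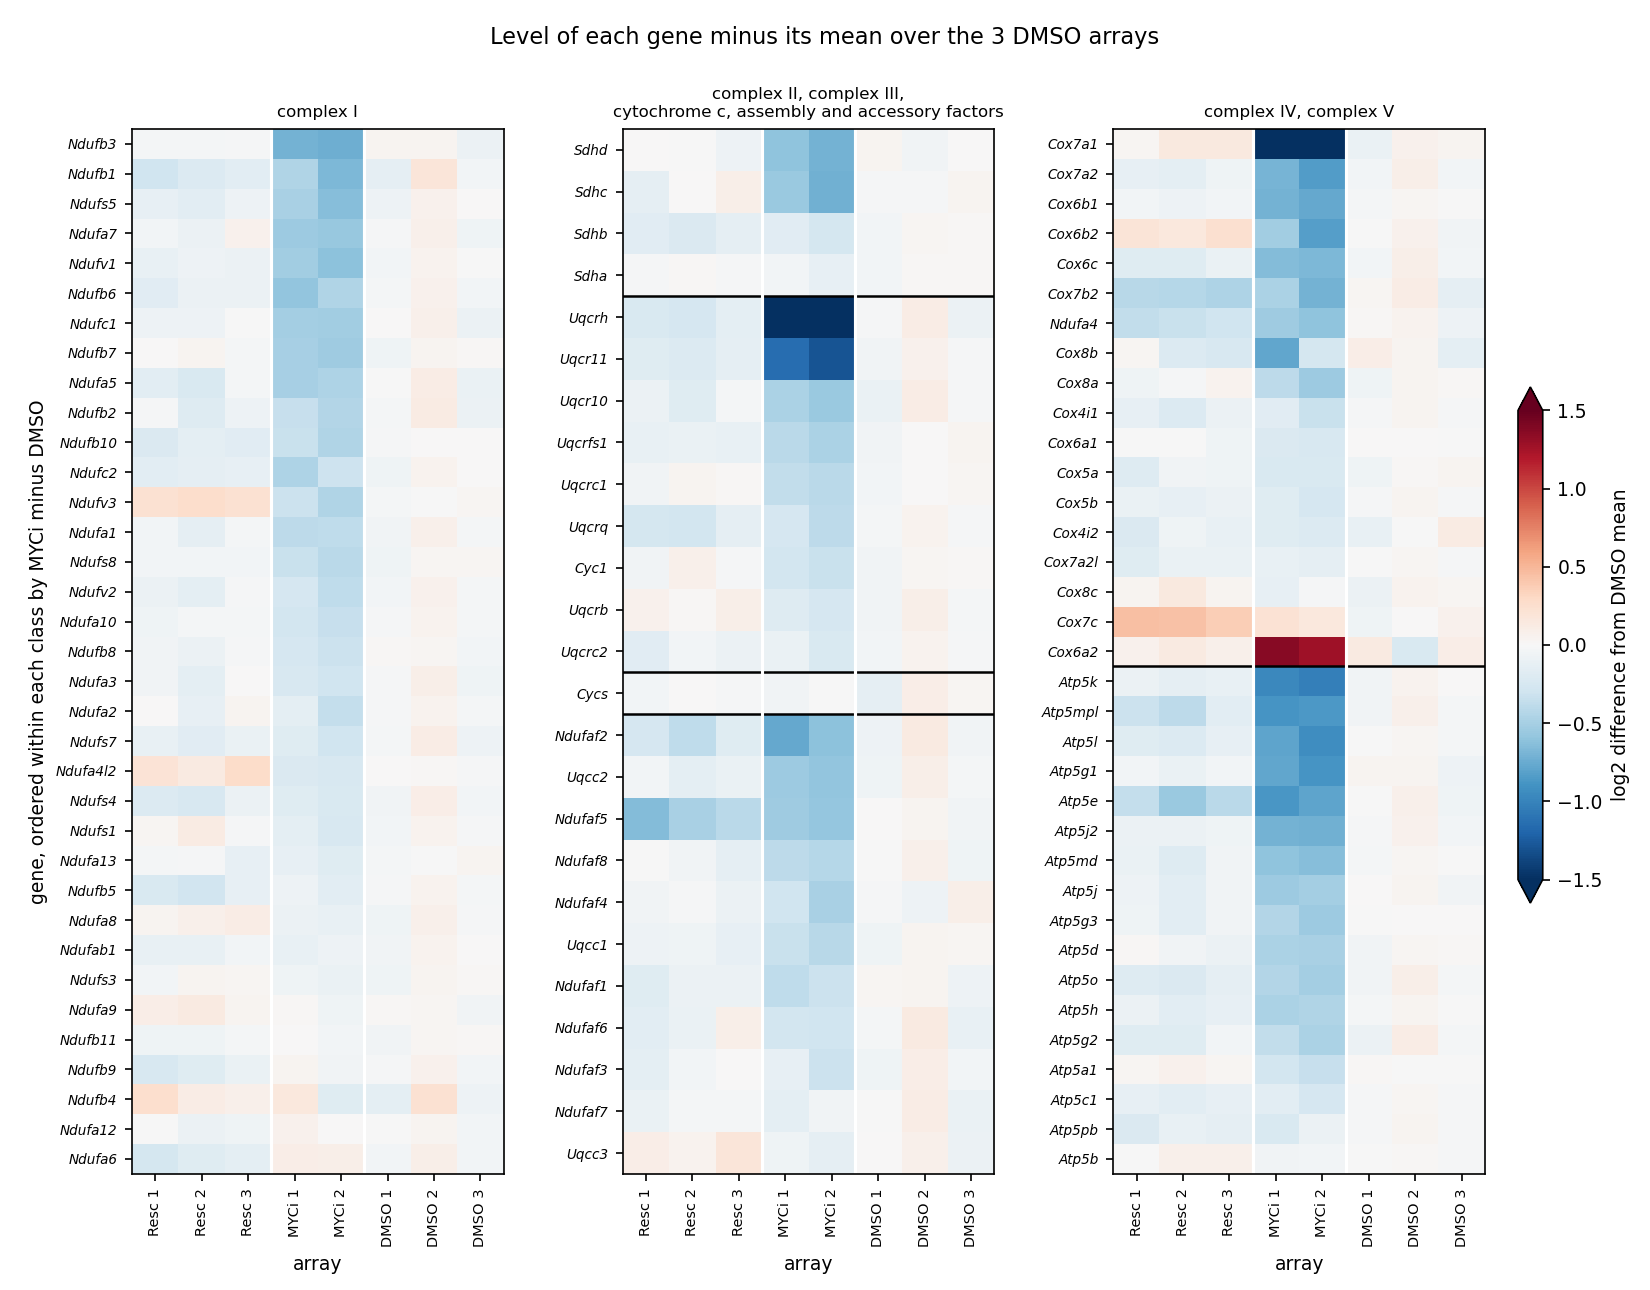
Level of each of the 95 genes on each array minus its mean over the 3 DMSO arrays (colour, log2 difference, cut at 1.5 in both directions), with genes down the page by class and the Resc, MYCi and DMSO arrays across. Except for cytochrome c, both MYCi columns are blue for most genes of every class, Cox6a2 is red in them, and the Resc columns are near the colour of the DMSO columns.

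The per-array medians show the same order. Each gene was set against its own DMSO mean, and the median over the 95 genes was -0.083, -0.095 and -0.061 on the Resc arrays, -0.34 and -0.388 on the MYCi arrays, and -0.03, 0.05 and -0.023 on the DMSO arrays. The MYCi arrays were lowest, and the Resc arrays lay slightly below all 3 DMSO arrays. In complex V the medians were -0.095, -0.156 and -0.088 on Resc arrays, -0.477 and -0.513 on MYCi arrays, and -0.013, 0.041 and -0.022 on DMSO arrays. In complex I they were -0.051, -0.091 and -0.031 on Resc arrays, -0.256 and -0.32 on MYCi arrays, and -0.034, 0.056 and -0.031 on DMSO arrays.

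**Figure D2:**
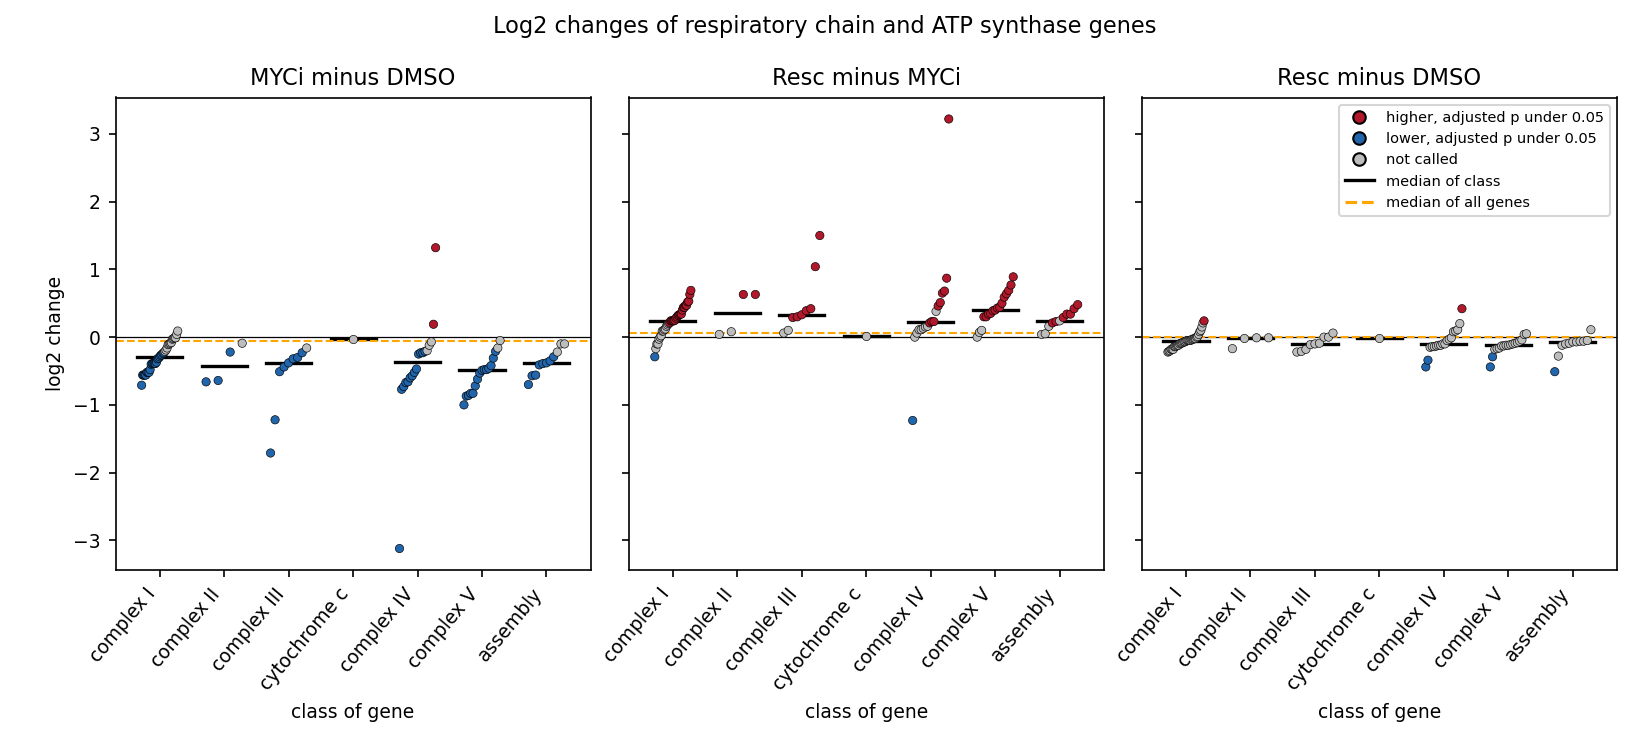
Log2 change of each gene (points) in MYCi minus DMSO, Resc minus MYCi and Resc minus DMSO, by class, with the median of the class (black bar) and of all genes tested (dashed line). Red and blue points passed an adjusted p under 0.05; except for cytochrome c, the class medians lie below the dashed line in the left panel and above it in the middle panel, and between -0.12 and -0.02 in the right panel.

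Complex I takes electrons from NADH through a flavin and a chain of iron-sulphur clusters in its core subunits, which many supernumerary subunits surround. Of its 35 genes 22 were called lower in MYCi than in DMSO and 0 higher, with a median of -0.29 and a range of -0.71 to 0.09. The core subunits did not stand apart by count: 4 of 6 were called lower (median -0.28), against 18 of 29 supernumerary subunits (median -0.29), a division made after the values were seen. Ndufv1, which holds the flavin where NADH is oxidised, lay at 10.37, 10.41 and 10.40 in Resc arrays, 9.97 and 9.87 in MYCi arrays, and 10.44, 10.54 and 10.48 in DMSO arrays. The MYCi arrays were below all others, and the change from DMSO was -0.56 ± 0.064 (limma adjusted p = 7.11e-05).

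Among the other core subunits with iron-sulphur clusters, Ndufs8 (-0.37), Ndufv2 (-0.32) and Ndufs7 (-0.24) were called lower in MYCi than in DMSO. Without MYCi replicate 2 the calls of Ndufv2 and Ndufs7 were lost, and that of Ndufs7 also without DMSO replicate 2. Ndufs1 was just outside the threshold (-0.19 ± 0.071, adjusted p = 0.0522), and Ndufs3, a core subunit of the arm that faces the matrix, had -0.08 ± 0.063 (adjusted p = 0.328). The largest fall of the complex was that of Ndufb3, a supernumerary subunit of the membrane arm. It lay at 9.36, 9.36 and 9.37 in Resc, 8.69 and 8.66 in MYCi, and 9.44, 9.44 and 9.30 in DMSO arrays. The MYCi arrays did not overlap with either other group, and the change from DMSO was -0.71 ± 0.066 (adjusted p = 1.69e-05), or 1.64-fold lower. Ndufa6, a supernumerary subunit, was not called in MYCi against DMSO (0.09 ± 0.070), and the single-symbol probe set of Ndufb4 lay near the bacterial controls, between 3.08 and 3.52.

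In complex II, succinate dehydrogenase, 3 of 4 genes were called lower in MYCi than in DMSO. These were Sdhc and Sdhd, which anchor the enzyme in the membrane, and Sdhb, while Sdha, which oxidises succinate at its flavin, was not called in the probe set used. Sdhd lay at 10.34, 10.33 and 10.26 in Resc arrays, 9.73 and 9.62 in MYCi arrays, and 10.38, 10.28 and 10.34 in DMSO arrays, a change of -0.66 ± 0.066 from DMSO (adjusted p = 2.99e-05). Sdhc changed by -0.64 ± 0.081 (adjusted p = 0.000137), with both MYCi arrays below all others. Sdhb, the iron-sulphur subunit, changed by -0.22 ± 0.065 (adjusted p = 0.0228), and its call was lost without DMSO replicate 2 or 3 or MYCi replicate 2. Sdha had -0.09 ± 0.060 (adjusted p = 0.283), while another of its probe sets was called lower at -0.46. Its 4 probe sets ranged from -0.46 to 0.24, with 1 called lower and 0 higher.

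Complex III carries the largest falls outside complex IV. Of its 9 genes 8 were called lower in MYCi than in DMSO and 0 higher, with a median of -0.38. Uqcrh, the hinge protein that helps cytochrome c dock on cytochrome c1, lay at 11.24, 11.22 and 11.33 in Resc arrays, 9.75 and 9.77 in MYCi arrays, and 11.46, 11.58 and 11.38 in DMSO arrays. The 3 groups did not overlap, and the change from DMSO was -1.71 ± 0.074 (adjusted p = 1.54e-07), a level 3.28-fold lower. The other probe set of Uqcrh gave -1.41.

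Uqcr11, the smallest subunit of the complex, lay at 10.62, 10.59 and 10.67 in Resc, 9.66 and 9.51 in MYCi, and 10.75, 10.87 and 10.78 in DMSO arrays. It was lowest in MYCi, with a change from DMSO of -1.22 ± 0.072 (adjusted p = 9.25e-07), or 2.32-fold lower. Of the subunits that move the electrons, Uqcrfs1, the Rieske iron-sulphur protein, changed by -0.44 ± 0.061 (adjusted p = 0.000261) and Cyc1, cytochrome c1, by -0.30 ± 0.067 (adjusted p = 0.00456). Uqcrb was called lower at -0.23, a call lost when either MYCi array or DMSO replicate 2 was left out. Uqcrc2, a core subunit and the 1 gene of the complex that was not called, had -0.16 ± 0.071 and is named here after its value was seen. Cycs, the mobile carrier cytochrome c, lay at 11.10, 11.15 and 11.13 in Resc arrays, 11.09 and 11.14 in MYCi arrays, and 11.01, 11.25 and 11.18 in DMSO arrays. Its groups overlapped, and its change of -0.03 ± 0.077 was not called (adjusted p = 0.773). In a limma fit over all probe sets, a dimmer probe set of Cycs was called lower at -0.27 (adjusted p = 0.0128). Its remaining probe sets, at -0.13 and -0.10, were not called.

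Complex IV, cytochrome c oxidase, has several subunits that exist as pairs of paralogues, 1 made in most tissues and the other in a few. Of its 18 genes 13 were called lower and 2 higher in MYCi than in DMSO, with a median of -0.36. The widest changes were in paralogues known from particular tissues. Cox7a1, the form of subunit 7a of heart and skeletal muscle, lay at 7.76, 7.88 and 7.88 in Resc arrays, 4.94 and 4.29 in MYCi arrays, and 7.63, 7.80 and 7.77 in DMSO arrays. The change from DMSO was -3.12 ± 0.15 (adjusted p = 3.34e-07), a level 8.68-fold lower, and both MYCi arrays were far below the rest while differing from each other more than the arrays of the other groups did. Cox7a2, the form of most tissues, changed by -0.77 ± 0.074 (adjusted p = 2.19e-05), and Cox7a2l, a related protein that helps join complexes III and IV, by -0.12 ± 0.060 (adjusted p = 0.133).

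Cox6a2, the form of subunit 6a of heart and skeletal muscle, went the other way from Cox7a1. It lay at 5.26, 5.33 and 5.28 in Resc arrays, 6.57 and 6.47 in MYCi arrays, and 5.33, 4.97 and 5.30 in DMSO arrays. Both MYCi arrays were above all others, with a change from DMSO of 1.32 ± 0.10 (adjusted p = 5.81e-06), or 2.5-fold higher, and its other probe set gave 0.98. Cox6a1, the form of most tissues, was called lower at -0.23 ± 0.057 (adjusted p = 0.0083). Of 12 markers of heart and skeletal muscle, 0 were called higher and 2 lower in MYCi than in DMSO. The share called lower was 16.7%, near the 22.3% of all genes, of which 19.2% were called higher. List averages were 4.26 to 4.30 in Resc, 3.95 to 3.98 in MYCi and 4.14 to 4.19 in DMSO arrays. The 2 markers called lower were Ttn (-1.16) and Myl7 (-0.68), named after their values were seen. The part of such cells in the changes of Cox7a1 and Cox6a2 was not tested.

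**Figure D3:**
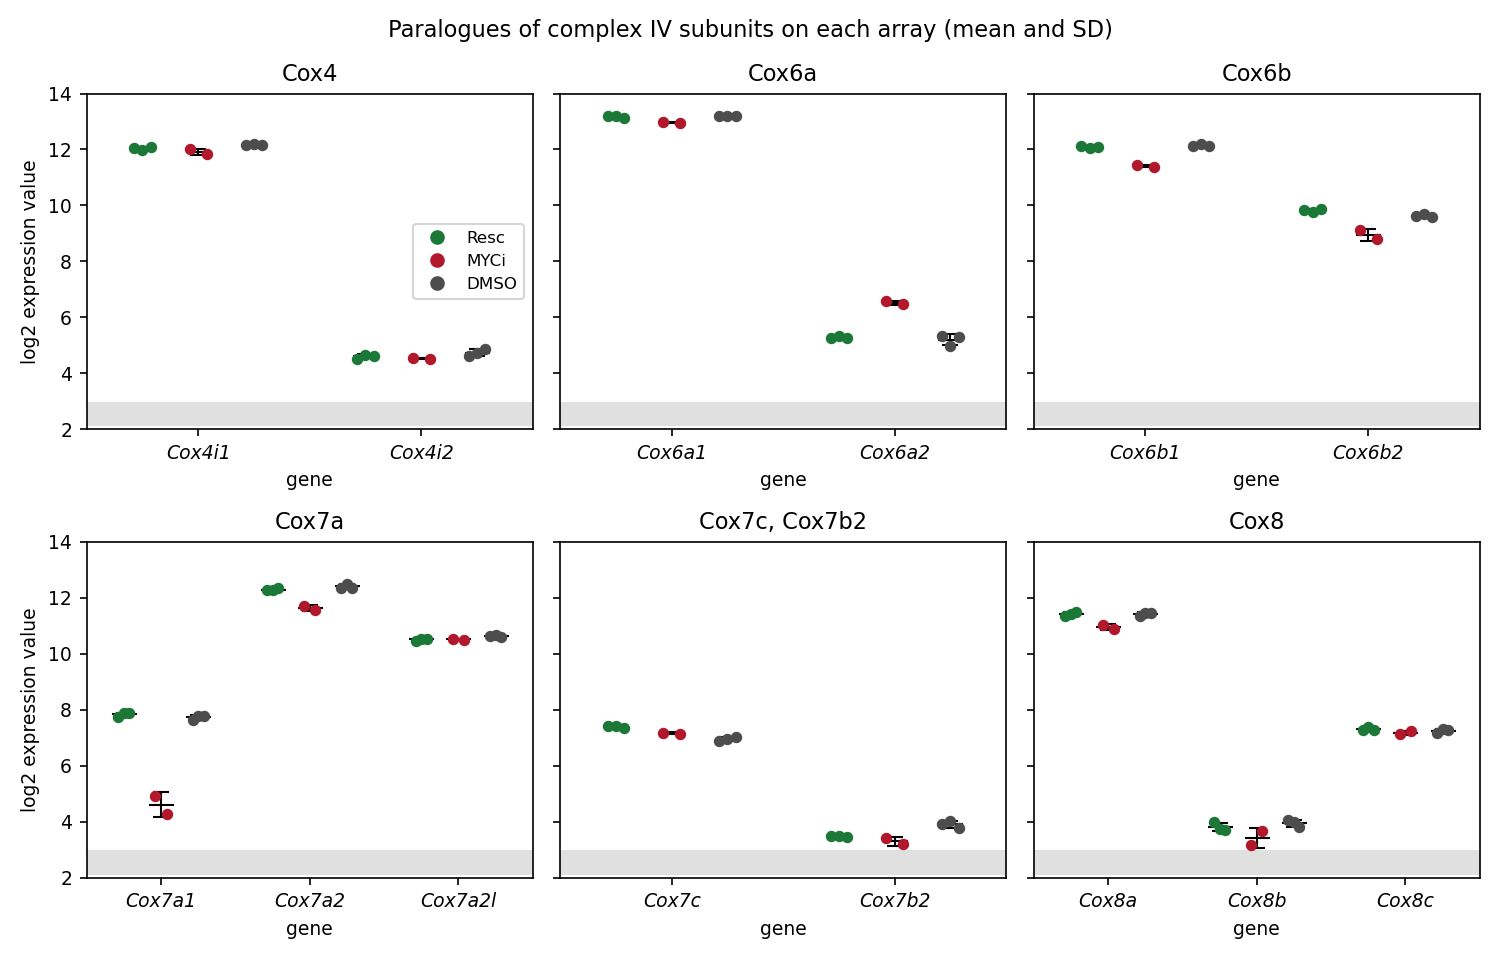
Log2 expression value of complex IV genes on each array, with 1 panel per subunit family, except that Cox7c and Cox7b2, of different subunits, share a panel. Points are arrays, and bars are group means with SD for Resc (3 arrays), MYCi (2) and DMSO (3). The grey band is the range of the bacterial Trpn controls; Cox7a1 is low and Cox6a2 high in MYCi, and Cox7b2 and Cox8b lie close to the band. Levels of different genes are not comparable, since they come from different probes.

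The remaining paralogues gave smaller values. Cox6b1, the common form of subunit 6b, changed by -0.73 ± 0.060 (adjusted p = 7.13e-06) and Cox6b2, known from testis, by -0.67 ± 0.090 (adjusted p = 0.000199). Cox8a, the common form of subunit 8, changed by -0.47 ± 0.073 (adjusted p = 0.000574). Cox8b, the muscle form in mice, was called lower at -0.52 ± 0.15, but lay between 3.17 and 4.05 and lost its call without MYCi replicate 1 or DMSO replicate 1. Cox8c, known from testis, had -0.07 ± 0.071 and was not called. Cox4i1, the common form of subunit 4, was called lower at -0.25 ± 0.070, a call lost without MYCi replicate 2, and Cox4i2, known from lung, had -0.20 ± 0.083 (adjusted p = 0.087). Cox7b2, known from testis, was called lower at -0.60 ± 0.091 (adjusted p = 0.000458) at a level between 3.2 and 4.02.

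Ndufa4 lay at 11.22, 11.26 and 11.29 in Resc arrays, 11.06 and 10.99 in MYCi arrays, and 11.61, 11.65 and 11.52 in DMSO arrays. The 3 groups did not overlap, and MYCi was lower than DMSO by -0.57 ± 0.066 (adjusted p = 7.87e-05). Its paralogue Ndufa4l2, known as a gene induced by hypoxia, changed by -0.23 ± 0.063, a call lost without either MYCi array. Cox7c, an integral subunit, was called higher at 0.19 ± 0.065 (adjusted p = 0.0406), a call lost in 13 of 19 alternative settings and turned in direction in 2 others that read its other probe set.

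Complex V had the lowest median of the 3 largest complexes, -0.49, with 15 of its 17 genes called lower in MYCi than in DMSO and 0 higher. Of the 12 genes of the membrane part and the outer stalk 11 were called lower (median -0.58), and of the 5 genes of the catalytic head and central stalk 4 (median -0.31), a division made after the values were seen and not tested as a difference. Atp5k, subunit e of the membrane part, lay at 11.42, 11.38 and 11.40 in Resc arrays, 10.54 and 10.48 in MYCi arrays, and 11.46, 11.56 and 11.51 in DMSO arrays. It was lowest in MYCi, at -1.0 ± 0.061 from DMSO (adjusted p = 1.16e-06). Atp5l, subunit g, which lies beside subunit e where ATP synthases pair, changed by -0.86 ± 0.067 (adjusted p = 5.38e-06), and Atp5mpl, a small proteolipid of the complex, by -0.87 ± 0.081 (adjusted p = 1.64e-05).

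The ring of c subunits that turns in the membrane is encoded by 3 genes whose mature proteins are the same. All 3 were called lower, Atp5g1 at -0.83 ± 0.068, Atp5g3 at -0.49 ± 0.064 and Atp5g2 at -0.42 ± 0.081. A dimmer probe set of Atp5g2 was called higher at 0.36. In the head, Atp5b, the catalytic beta subunit, lay at 12.66, 12.74 and 12.74 in Resc arrays, 12.61 and 12.62 in MYCi arrays, and 12.66, 12.68 and 12.65 in DMSO arrays. Its MYCi arrays were the lowest by a small margin, and its change of -0.05 ± 0.059 was not called (adjusted p = 0.546). Atp5a1, the alpha subunit, was called lower at -0.31 ± 0.059 (adjusted p = 0.0019), and Atp5e, the epsilon subunit of the central stalk, at -0.83 ± 0.080 (adjusted p = 2.06e-05). Atp5c1, the gamma subunit, was called lower at -0.21 ± 0.060 by its brighter probe set, while its dimmer probe set was called higher at 1.01, and the call of the brighter was lost without MYCi replicate 2.

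**Figure D4:**
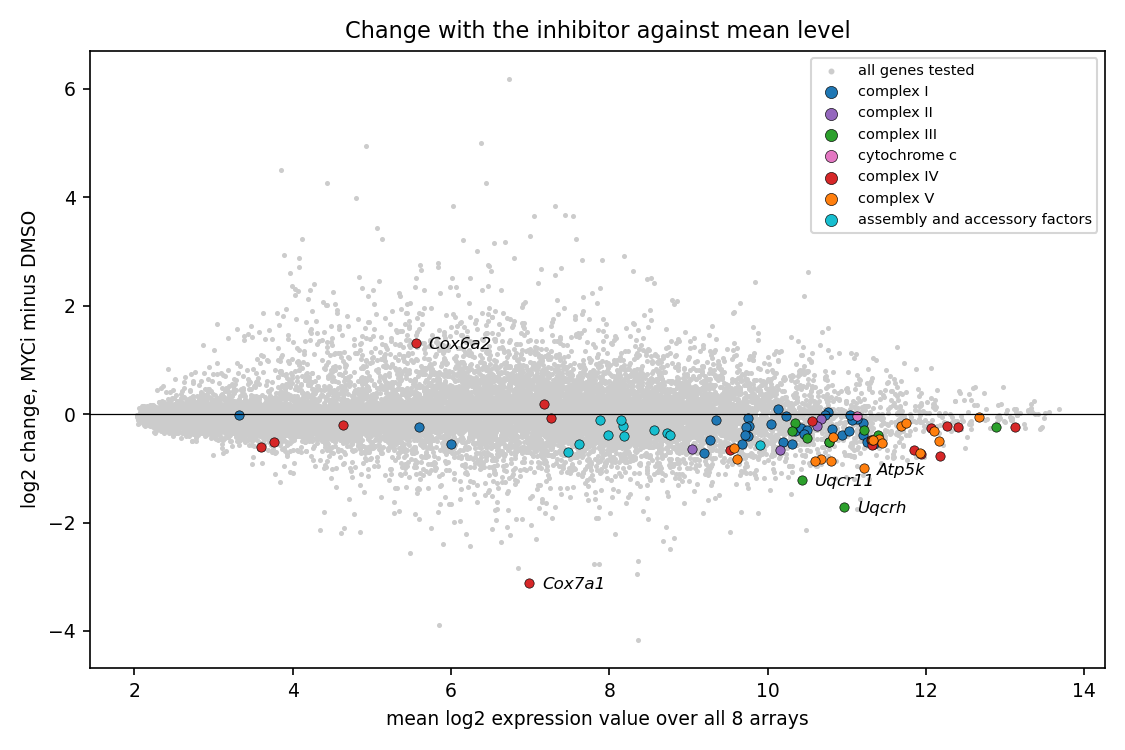
Log2 change in MYCi minus DMSO of each gene (vertical axis) against its mean log2 expression value over all 8 arrays (horizontal axis), with all genes tested in grey and oxidative phosphorylation genes coloured by class. Most coloured points lie at a mean of 8 or more and below 0; Cox7a1 and Cox6a2 lie apart from them.

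Of the 11 assembly and accessory factors 8 were called lower and 0 higher in MYCi than in DMSO, with a median of -0.38. Ndufaf2, an assembly factor of complex I, changed most, at -0.70 ± 0.090 (adjusted p = 0.000159). Uqcc2, an assembly factor of complex III, changed by -0.57 ± 0.069 (adjusted p = 9.85e-05), and Ndufaf5, an enzyme that modifies a complex I subunit during assembly, by -0.56 ± 0.080 (adjusted p = 0.000327). Both MYCi arrays lay below all DMSO arrays in each of these 3 genes.

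Probe sets of the same gene mostly moved the same way. Among the 54 genes read by several probe sets, 28 had all of them called lower in MYCi than in DMSO, 15 had some called lower, 1 had all and 3 had some called higher, and 9 had none called. Opposite calls occurred within Atp5c1 and Atp5g2. Ndufab1, which encodes the mitochondrial acyl carrier protein, had -0.09 in its brightest probe set and 1.71 in another. The suffixes of 19 of the probe sets used mark probes shared by several transcripts, and paralogues or pseudogenes could contribute to them. A further 10 probe sets carry a name of this list together with another gene and were not tested. Among these, a probe set shared by Ndufa11 and Ndufa11b lay at 10.11, 10.11 and 10.29 in Resc, 9.51 and 9.50 in MYCi, and 10.18, 10.35 and 10.20 in DMSO arrays. It was lower in both MYCi arrays than in all others. A dimmer probe set of the same genes overlapped, at 4.52 and 4.58 in MYCi and 4.72, 4.44 and 4.57 in DMSO arrays. A probe set shared by Ndufb4, Ndufb4b and Ndufb4c lay at 10.89, 10.84 and 10.91 in Resc, 10.75 and 10.63 in MYCi, and 11.02, 11.07 and 10.89 in DMSO arrays. These probe sets were picked after their values were seen, and the rest of the 10 are not described here.

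After withdrawal of the inhibitor most of these transcripts were higher again. In Resc against MYCi, 60 of the 95 genes were called higher, which is 63.2%, while 22.7% of all genes tested were called higher. Only Cox6a2 and Ndufa6 were called lower, against 19.2% of all genes, and the median change was 0.29 over the 95 genes and 0.06 over all genes. Resc minus MYCi and MYCi minus DMSO share the MYCi arrays, so that their opposite signs are not independent of each other. By class, 21 of 35 genes were called higher in complex I, 2 of 4 in complex II, 7 of 9 in complex III, 9 of 18 in complex IV, 14 of 17 in complex V and 7 of 11 among the assembly and accessory factors.

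Cox7a1 was 9.34-fold higher in Resc than in MYCi (3.22 ± 0.15, adjusted p = 2.39e-07) and Uqcrh 2.83-fold higher (1.5 ± 0.074, adjusted p = 2.89e-07). Uqcr11 was 2.06-fold higher (1.04 ± 0.072, adjusted p = 2.27e-06) and Atp5k 1.85-fold higher (0.89 ± 0.061, adjusted p = 2.27e-06). Cox6a2 was 2.35-fold lower (-1.23 ± 0.10, adjusted p = 8.53e-06). Ndufa6 lay at 9.92, 10.00 and 10.04 in Resc arrays, 10.28 and 10.27 in MYCi arrays, and 10.14, 10.27 and 10.14 in DMSO arrays. Its Resc arrays were below all others, and it was the 1 gene of complex I called lower in Resc than in MYCi (-0.29 ± 0.070, adjusted p = 0.00715). Ndufaf5, by contrast with most, had 0.05 ± 0.080 in Resc minus MYCi and was not called.

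Resc cells differed little from DMSO cells in these genes. In Resc against DMSO, 2 of the 95 genes were called higher (2.11%, with 4.66% of all genes called higher) and 5 lower (5.26%, with 4.01% of all genes called lower), shares near those of all genes. The median change was -0.09, against 0.0 over all genes, and 77 of the 95 differences were below 0. Of the 69 genes called lower in MYCi, 63 were not called between Resc and DMSO, which does not show that they were equal. A fit with both a variance trend over level and robust fitting called 25 genes lower and 3 higher in this comparison.

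The 5 genes called lower in Resc than in DMSO were Ndufaf5, Atp5e, Cox7b2, Ndufa4 and Atp5mpl, each of which was also called lower in MYCi. Ndufaf5 lay at 7.30, 7.47 and 7.55 in Resc arrays, 7.42 and 7.37 in MYCi arrays, and 7.96, 8.0 and 7.90 in DMSO arrays. Its Resc and MYCi arrays overlapped and both were below DMSO, with Resc minus DMSO at -0.51 ± 0.072 (adjusted p = 0.00226). Atp5e lay at 9.63, 9.43 and 9.58 in Resc, 9.11 and 9.19 in MYCi, and 9.98, 10.06 and 9.92 in DMSO arrays. Its Resc arrays lay between the other groups, at -0.44 ± 0.071 from DMSO (adjusted p = 0.00479) and 0.39 ± 0.080 from MYCi (adjusted p = 0.00276). Ndufa4 was also between them, at -0.34 ± 0.059 from DMSO (adjusted p = 0.00752), and Cox7b2 had -0.44 ± 0.082 (adjusted p = 0.00995) near the bacterial controls. Atp5mpl had -0.29 ± 0.072 (adjusted p = 0.0389), a call lost in 12 of 19 alternative settings.

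The 2 genes called higher in Resc than in DMSO were Cox7c and Ndufv3. Cox7c lay at 7.42, 7.41 and 7.34 in Resc arrays, 7.18 and 7.13 in MYCi arrays, and 6.90, 6.97 and 7.03 in DMSO arrays. The 3 groups did not overlap and Resc was highest, at 0.42 ± 0.058 from DMSO (adjusted p = 0.00211). The probe set used is marked as shared by several transcripts, and the other probe set of Cox7c gave 0.10 in a limma fit over all probe sets (adjusted p = 0.556). The call was lost in 2 of 19 alternative settings. Ndufv3, a subunit beside the NADH site of complex I, lay at 9.95, 9.98 and 9.94 in Resc arrays, 9.39 and 9.26 in MYCi arrays, and 9.69, 9.71 and 9.75 in DMSO arrays. It was lowest in MYCi (-0.39 ± 0.064 from DMSO, adjusted p = 0.000802) and highest in Resc (0.24 ± 0.057 from DMSO, adjusted p = 0.0304), and the call of Resc against DMSO was lost in 8 of 19 alternative settings.

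Other genes of the pathway did not all move with the subunits. Of 39 assembly factors outside the name prefixes, 7 were called higher (17.9%, with 19.2% of all genes called higher) and 16 lower (41.0%, with 22.3% of all genes called lower) in MYCi than in DMSO, with a median of -0.12. Pet100 (-1.12 ± 0.080, adjusted p = 3e-06) and Cmc2 (-0.98 ± 0.085), both linked to the assembly of complex IV, were among the lower ones, although other probe sets of each gave -0.09 and -0.12. Cmc1, also an assembly factor of complex IV, was called higher at 0.86 ± 0.076, while its other probe set gave -0.25.

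Of 19 genes that make coenzyme Q or feed electrons into it from other sources, 7 were called higher (36.8%, with 19.2% of all genes) and 3 lower (15.8%, with 22.3% of all genes), with a median of -0.01. Etfa, a subunit of the flavoprotein that collects electrons from fatty acid oxidation, lay at 9.90, 9.95 and 9.94 in Resc arrays, 10.86 and 10.82 in MYCi arrays, and 9.84, 9.93 and 9.79 in DMSO arrays. Both MYCi arrays were above all others, at 0.99 ± 0.064 from DMSO (adjusted p = 1.69e-06). Etfdh, the enzyme that passes those electrons to coenzyme Q, was called higher at 0.90 ± 0.070, with -0.34 in another probe set, and Coq7, an enzyme of coenzyme Q synthesis, was called lower at -0.83 ± 0.070.

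Of 12 genes for adenine nucleotide and phosphate exchange, 0 were called higher and 3 lower (25.0%, near the 22.3% of all genes, median -0.14). The 3 were Ppif, the cyclophilin of the permeability transition (-0.43), Atpif1, the inhibitor of the ATP synthase (-0.35, with 0.73 in another probe set), and Slc25a5, an exchanger of ADP and ATP (-0.23). Of 26 regulators of respiratory gene expression, 3 were called higher (11.5%, with 19.2% of all genes) and 13 lower (50%, with 22.3% of all genes), with a median of -0.19. Tfb2m and Tfam, which start transcription of mitochondrial DNA, were called lower at -0.79 ± 0.070 and -0.57 ± 0.058, and Nfe2l1, a transcription factor of the stress response, was called higher at 0.64 ± 0.067.

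A single probe set annotated to a mitochondrially encoded subunit, ND5 of complex I, was used. Whether it reads ND5 alone, or transcripts of both strands of mitochondrial DNA, could not be settled here. It lay at 11.65, 11.67 and 11.75 in Resc arrays, 11.80 and 11.96 in MYCi arrays, and 11.04, 11.17 and 11.31 in DMSO arrays. It was higher in MYCi than in DMSO (0.71 ± 0.089, adjusted p = 0.000133) and higher in Resc than in DMSO (0.52, adjusted p = 0.00372), and Resc minus MYCi was not called (-0.19).

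Genes with the ETS core in a promoter window numbered 19, of which 18 were called lower in MYCi than in DMSO (median -0.52), and of the 59 matched genes without it 40 were called lower (median -0.39). For the NRF1 motif, 14 of 18 genes with it were called lower (median -0.44) and 44 of 60 without it (median -0.39). For the E-box, 5 of 7 genes with it (median -0.56) and 53 of 71 without it (median -0.39) were called lower. For the YY1 motif, 6 of 10 genes with it were called lower (median -0.32) and 52 of 68 without it (median -0.4). For the receptor motif, 2 of 2 genes with it were called lower (median -0.57) and 56 of 76 without it (median -0.39). Windows that hold more than 1 motif count for each, and no test was made of these counts.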

How the data were processed

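Total RNA of 8 samples was hybridised to Affymetrix arrays. The deposited values are log2 expression values, a scale read from their range of 1.69 to 13.76, made by RMA per the submitters' processing notes, which also list limma 3.2.15 and oligo 1.32.0. RMA subtracts background, brings all arrays to a common distribution and combines the probes into 1 value per probe set, so differences are relative within an array and compressed near background. The number of arrays limits the precision.

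Of 45101 probe sets, 34945 carried 1 gene symbol in the platform annotation, 932 carried several, 9160 are not named here, and 64 were controls. For each of 18193 genes the probe set of highest mean level was used. Group means over all 8 arrays were fitted with limma 3.58.1 (lmFit, eBayes, two-sided, residual df 5) in R 4.3.3, with Benjamini-Hochberg adjustment over all genes and a threshold of 0.05. The script was tested on simulated data. Promoters were searched with Python 3.11.15.

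The genes and lists were chosen with earlier results of these data known. The text names, per comparison, up to 10 members with the largest called rise and fall without overlap of the groups, the 2 with the smallest p per class, core subunits, complex IV, Ndufa4 and c-subunit paralogues, members with opposite probe sets, those at the extremes of level, and up to 3 genes per further list. Subgroups within complexes I and V were formed after the values were seen.

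Alternatives were the choice of probe set, a filter on low levels, centring, repeated quantile normalization, the variance model, array weights, the arrays in the fit, the threshold, a replicate block, and dropping 1 array at a time. Leaving out probe sets shared by several transcripts was chosen after seeing the data. Deviations of arrays with the same replicate number correlated at -0.056 to 0.014, so the numbers were not taken to pair the arrays.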

Additional observations from a re-analysis of the deposited data

How the results depend on the processing

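In every alternative run the median over the oxidative phosphorylation genes stayed below 0 in MYCi minus DMSO and above 0 in Resc minus MYCi. Leaving out each array in turn gave 57 to 70 called genes in MYCi against DMSO, of which 56 to 69 were lower and 1 or 2 higher, with medians of -0.40 to -0.34. For Resc against MYCi this gave 48 to 65 called, 46 to 63 higher and 2 lower, with medians of 0.25 to 0.32. For Resc against DMSO it gave 5 or 6 called, 4 or 5 lower and 1 or 2 higher, with medians of -0.10 to -0.05. Where a group of 2 lost an array, the lone array was assumed to vary like the other groups. The lowest counts of both comparisons with MYCi came without MYCi replicate 2.

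In MYCi against DMSO, 1 gene was called higher with median centring, repeated quantile normalization, only the arrays of the 2 groups, an adjusted p under 0.01, or the replicate number as a block (replicate block), since Cox7c lost its call. Median centring moved the medians to -0.43 and, for Resc against MYCi, to 0.33. With each of the 190 probe sets tested on its own, 131 were called in MYCi against DMSO (126 lower, 5 higher, median -0.34). In Resc against MYCi 108 were called (103 higher, 5 lower, median 0.24). In Resc against DMSO 10 were called (4 higher, 6 lower, median -0.08). The count for Resc against DMSO depended most on the setting: 13 genes (10 lower) without genes under the 30th percentile of level, which also leaves fewer genes tested, 8 lower with median centring, 28 (25 lower) with a variance trend and robust fitting, and 1 higher with the replicate block or an adjusted p under 0.01. The block otherwise ended 5 calls of named members in MYCi against DMSO, and the cause of these moves was not tested.

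Reversals came from reading other probe sets. In MYCi against DMSO the mean of a gene's probe sets gave 0.40 for Atp5c1, 0.08 for Atpif1 and 0.21 for Ndufab1. A single other probe set gave 1.01 for Atp5c1, 0.36 for Atp5g2, 0.73 for Atpif1, -0.25 for Cmc1, -0.12 for Cox7c, -0.34 for Etfdh, 1.71 for Ndufab1 and 0.11 for Uqcrq. Without probe sets shared by several transcripts, the values of Atp5c1 (1.01), Cmc1 (-0.25), Cox7c (-0.12) and Uqcrq (0.11) were these same ones. In Resc against MYCi the mean gave -0.28 for Atp5c1, and single probe sets gave -0.63 for Atp5c1, -0.06 for Atp5g1, -0.16 for Atp5g2, -0.13 for Atpif1, 0.39 for Cmc1, 0.25 for Etfdh and -1.28 for Ndufab1. Those of Atp5c1 and Cmc1 also held without shared probe sets. In Resc against DMSO, Atp5c1 gave 0.38 in both of these settings and Ndufab1 0.43 in its other probe set. Signal limits what can be said of Ndufb4, Cox7b2 and Cox8b, which lay near the bacterial controls. The same holds for the other probe set of Atp5g1, whose mean level of 2.39 lay within the range of those controls.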
